A study of Homo sapiens with 10 samples.

Results

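The replication-dependent histone genes were taken as every row whose symbol starts with HIST1H, HIST2H or HIST3H. These were 76 of the 65572 transcript rows and gave 73 genes after the row with the highest mean level was kept for each symbol, of 27946 symbols in all. By class there were 6 H1, 18 H2A, 20 H2B, 15 H3 and 14 H4 genes. They were followed in 10 RNA-Seq libraries of the EA.hy926 cell line, an immortal hybrid of human umbilical vein endothelial cells and A549 lung carcinoma cells. In 3 clones the promoter of the lncRNA VEGFA-LNC had been deleted with CRISPR/Cas9 (genotype label VEGFA_lincRNA knock-out), and in 3 clones that of VEGFC-LNC (VEGFC_lincRNA knock-out). Each deletion had 2 control libraries of its own, from cells given guide RNAs without Cas9 and carried through the same clonal selection. All cells grew in high-glucose DMEM with serum. Each deletion library came from 1 clone, and no source says whether the 2 controls of a set were separate cultures, so that the p-values measure the spread between these libraries, which may be technical in the controls. Neither lncRNA had a row of its own, and the deletions were therefore not checked here.

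Replication-dependent histone genes encode the bulk of the core histones H2A, H2B, H3 and H4 that package new DNA and the linker histone H1 that sits on the nucleosome. They are transcribed mainly in S phase under the coactivator NPAT, lack introns, and their mRNAs usually end in a conserved stem-loop bound by SLBP instead of a poly(A) tail. They lie in a large cluster on the short arm of chromosome 6 (HIST1) and in smaller ones on chromosome 1 (HIST2 and HIST3), often as H2A and H2B genes that share a divergent promoter.

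In the hg19 coordinates of the table, 35 genes lay in chr6:25726291-26285727, 21 in chr6:27100095-27861669, 3 in chr1:228612546-228646259 and the 14 HIST2 genes on chromosome 1 between 120906034 and 149859466. The stem-loop was searched in the hg19 sequence on the strand listed for each gene. It was found in 71 of 73 genes, in 67 of them 0 to 60 bases before the listed 3′ end. In 180-base windows around the 3′ end it was present in 91.8% of the 73 member windows and in 0 of 4125 windows of other genes on chromosomes 1 and 6. HIST1H2APS1, a pseudogene, had no match, and HIST2H2AA3 had its match on the strand opposite to the listed one. The most abundant gene of each class, or for H2A and H4 its copy of nearly equal level (HIST2H2AA4 for HIST2H2AA3, HIST2H4A for HIST2H4B), is printed with HIST1H3E, which differed least between the control sets, because the stem-loop is what these mRNAs share. Capitals mark the stem-loop, and 5 bases on either side are in lower case.
HIST1H1C (chr6:26055967-26055992, minus strand): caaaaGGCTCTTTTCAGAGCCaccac
HIST2H2AA4 (chr1:149813785-149813810, minus strand): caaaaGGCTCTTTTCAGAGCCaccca
HIST2H2BF (chr1:149783435-149783460, minus strand): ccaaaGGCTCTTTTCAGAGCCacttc
HIST2H3C (chr1:149812259-149812284, minus strand): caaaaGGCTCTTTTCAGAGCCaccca
HIST2H4A (chr1:149804591-149804616, plus strand): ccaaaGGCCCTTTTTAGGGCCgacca
HIST1H3E (chr6:26225819-26225844, plus strand): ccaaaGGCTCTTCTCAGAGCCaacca
The first 4 carry the same 16 bases, which 41 of the 71 genes had. All 14 H4 genes had a stem beginning GGCCC, as in HIST2H4A, and none of the genes of the other classes did.

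Promoters were compared in the RefSeq sequences of GRCh38.p14, from 250 bases before to 50 after each start, which were matched for 65 of the 73 genes. A CCAAT box (CCAAT, either strand) stood in all 6 H1, 16 H2A, 18 H2B and 13 H3 promoters matched and in 3 of 12 H4 promoters, against 34.6% of all 35116 promoters. The octamer ATTTGCAT, read on both strands, was present in 11 H2A, 14 H2B, 1 H3, 0 H1 and 0 H4 promoters, against 1.77% of all. The H3 promoter was that of HIST1H3D, whose window is the same as that of HIST1H2AD. Windows of divergent H2A and H2B genes can overlap, so that 1 match can count in both classes. The H1 element AAACACA was present in 6 of 6 H1, 1 of 16 H2A, 0 of 18 H2B, 2 of 13 H3 and 0 of 12 H4 promoters, against 5.64% of all. TATAAA was present in 66.2% of the members and 11.5% of all. TATAAA was also read on both strands, so that a stretch such as the end of the sequence shown next holds a match on each. A match is only a match of letters. The stretch between HIST1H2BK, on the minus strand, and HIST1H2AH, on the plus strand, is shown as the divergent promoter with the highest summed level of its 2 genes. It is the plus strand of hg19 with the matches of these motifs in capitals.
HIST1H2BK and HIST1H2AH (chr6:27114638-27114860): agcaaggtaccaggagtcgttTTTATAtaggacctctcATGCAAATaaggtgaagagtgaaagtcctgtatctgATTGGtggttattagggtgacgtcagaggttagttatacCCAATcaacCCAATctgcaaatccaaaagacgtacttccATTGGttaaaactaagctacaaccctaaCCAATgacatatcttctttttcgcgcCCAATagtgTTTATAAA
It holds 3 TATAAA, 6 CCAAT and 1 octamer matches, the octamer near the HIST1H2BK end.

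Levels are FPKM (fragments per kilobase of transcript, scaled to the reads of the library). Depth, recovered from the values, ran from 6743908 reads in VEGFC-LNC clone 3 to 24197619 in VEGFC-LNC control 2. A gene was tested if it reached 1 CPM (reads scaled to library size) in at least 2 libraries, which 63 of the 73 histone genes and 13334 genes in all did. Copies that cannot be told apart, such as HIST2H4A and HIST2H4B, count as separate genes in this and all later counts. Expression changes were fitted with limma on log2(FPKM + 0.1), which understates the changes of low genes, and a DEG had a false-discovery rate (FDR, adjusted over all 13334 genes) below 0.05 and a fold change of at least 1.5. Between libraries of 1 group, the chi-square per degree of freedom was 3.64 for the VEGFA-LNC controls and 1.53 for the VEGFC-LNC controls, against 18.3 to 135 between clones. The control libraries of a set were thus much closer to each other than the clones were. EA.hy926 identity was checked on 11 endothelial markers, of which 10 were tested. CDH5 (VE-cadherin) ranged from 56.6 to 312 FPKM over the 10 libraries and CLDN5 was listed at 0 in all.

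The histone genes took a small and very unequal share of the reads. They held 0.219% and 0.203% of the reads of the 2 VEGFA-LNC controls and 0.780% and 0.789% of those of the 2 VEGFC-LNC controls. Among the VEGFA-LNC clones the share was 0.778% in clone 1, 0.119% in clone 2 and 0.138% in clone 3. The VEGFC-LNC clones held 0.460%, 0.155% and 0.253%. Clone 1 of the VEGFA-LNC deletion thus lay with the VEGFC-LNC controls, and the other 2 clones of that deletion lay below their own controls. All 3 VEGFC-LNC clones lay below theirs. The group means were 0.345% ± 0.375 (SD, n = 3) in the VEGFA-LNC clones against 0.211% ± 0.0111 (SD, n = 2) in their controls, with an exact two-sided permutation p = 1. In the VEGFC-LNC clones the mean was 0.289% ± 0.156 (SD, n = 3) against 0.784% ± 0.00571 (SD, n = 2), a ratio of 0.368, with an exact two-sided permutation p = 0.2, the smallest this design allows with p doubled from the smaller tail. The 2 control sets differed 3.71-fold, and 2 libraries against 2 cannot reach below an exact permutation p of 0.333. Reads of the identical HIST2 copies enter this sum once per copy.

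**Figure D1:**
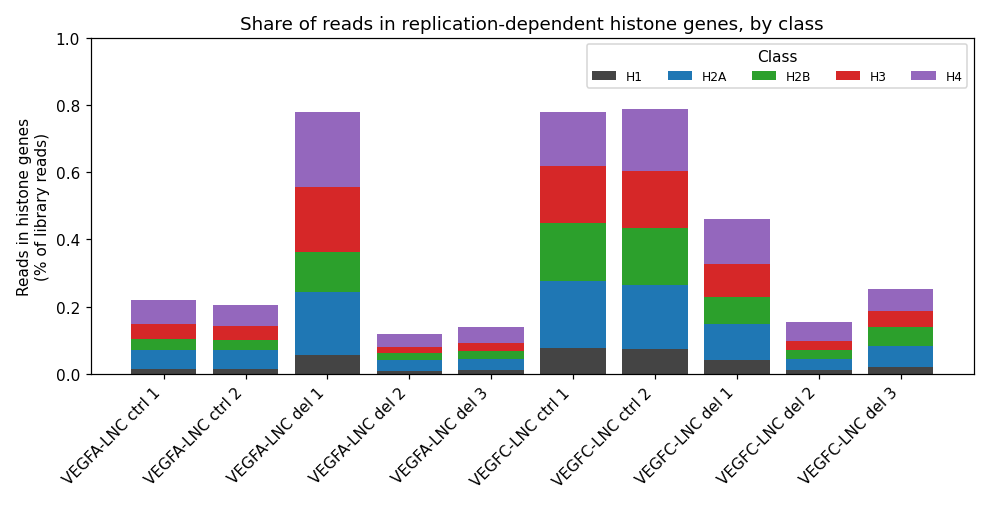
Share of library reads (%, y axis from 0) in histone genes of each class, stacked, for each of the 10 libraries (x axis). The VEGFC-LNC controls and VEGFA-LNC clone 1 stand between 0.778% and 0.789%, and VEGFA-LNC clones 2 and 3 and VEGFC-LNC clone 2 at 0.155% or less.

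In VEGFA-LNC deletion the 3 clones went different ways and no histone gene passed the test. All 63 tested genes were above both controls in clone 1, 57 were below both in clone 2 and 56 in clone 3. The shares of all genes were not counted for single clones, so these 3 counts have no baseline. The median over the 63 genes of the log2 difference from the control mean was 1.99 in clone 1, −1.06 in clone 2 and −0.72 in clone 3. The fitted changes had a median of 0.05 against −0.06 over all 13334 genes, with 36 higher and 27 lower. Limma called 0 of the 63 genes, against 2.75% of all genes, and 0 had an unadjusted p under 0.05, against 19.8%. The smallest adjusted p was 0.431, and limma voom on the recovered reads called 0 as well. In no tested histone gene did all 3 clones lie above both controls, or all 3 below, against 15.3% and 23.7% of all genes. Without clone 1 the median was −0.90, with 0 DEGs again against 13.0% of all genes.

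In VEGFC-LNC deletion every tested histone gene had a lower fitted mean in the clones, and no single gene passed the test. All 3 clones were below both controls in 55 of the 63 genes, against 30.6% of all genes. All 63 were below both controls in clone 2 and in clone 3, and 55 in clone 1. The order clone 1, clone 3, clone 2 from high to low held in 57 genes. Neither the counts for single clones nor this order were counted over all genes, so they have no baseline. The median log2 difference from the control mean was −0.75 in clone 1, −2.61 in clone 2 and −1.66 in clone 3. The fitted changes ran from −2.47 to −0.46 with a median of −1.69, against −0.09 over all genes. Against all 4 controls instead of the 2 of its own set, the histone median was −0.62. Limma called 0 of the 63 genes, against 0.472% of all genes, with a smallest adjusted p of 0.135, and limma voom called 0. At an unadjusted p under 0.05 there were 16, against 18.8% of all genes. The count of DEGs rested on 1 library of the other deletion, since all 10 libraries shared 1 estimate of the spread. Without VEGFA-LNC clone 1 limma called 27 histone genes, all lower (2 H1, 8 H2A, 12 H2B, 3 H3 and 2 H4), against 8.68% of all genes, at the same median of −1.69. The 2 H4 genes were the identical copies HIST2H4A and HIST2H4B. The inseparable pairs HIST2H2AA3 with HIST2H2AA4 and HIST2H3A with HIST2H3C were also among the 27. So were HIST2H2BF, HIST2H2BC and HIST2H2BE, and 24.9% of the 75-base runs of HIST2H2BF are found in the other members named. The long rows HIST2H2BA and HIST2H3PS2, called as well, were not scanned for sequence shared with other members. The 27 are therefore not 27 separate measurements. In bulk RNA, fewer cells in S phase and less histone mRNA per cell cannot be told apart.

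The 2 control sets, which carry no deletion, also differed. Both VEGFC-LNC controls were above both VEGFA-LNC controls in 63 of 63 genes, against 33.7% of all genes, and the median log2 difference was 2.17 against −0.11 over all genes. Limma called 3 genes, all higher in the VEGFC-LNC controls, against 12.7% of all genes called in either direction and 2.92% called higher, so the share of histone genes called (3 of 63) was close to the latter. At an unadjusted p under 0.05 there were 34, against 31.3% of all genes. Limma voom called 4, and a fit with the replicate number as a block called 6. Leaving out VEGFA-LNC clone 1 raised the count to 55, against 23.0% of all genes, and leaving out any 1 control library lowered it to 0. The difference of the 2 deletion effects had a median of −1.76, and 62 of 63 genes were lower in the VEGFC-LNC effect. Limma and limma voom called 0 of them, against 1.45% of all genes, and 10 had an unadjusted p under 0.05 with limma, against 18.6% of all genes. Without VEGFA-LNC clone 1 it called 1, HIST2H2BE (−2.02 ± 0.41 SE, adjusted p = 0.0333), against 5.20% of all genes. The control sets were prepared for different deletions, and the set and the deletion cannot be told apart in this last comparison.

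**Figure D2:**
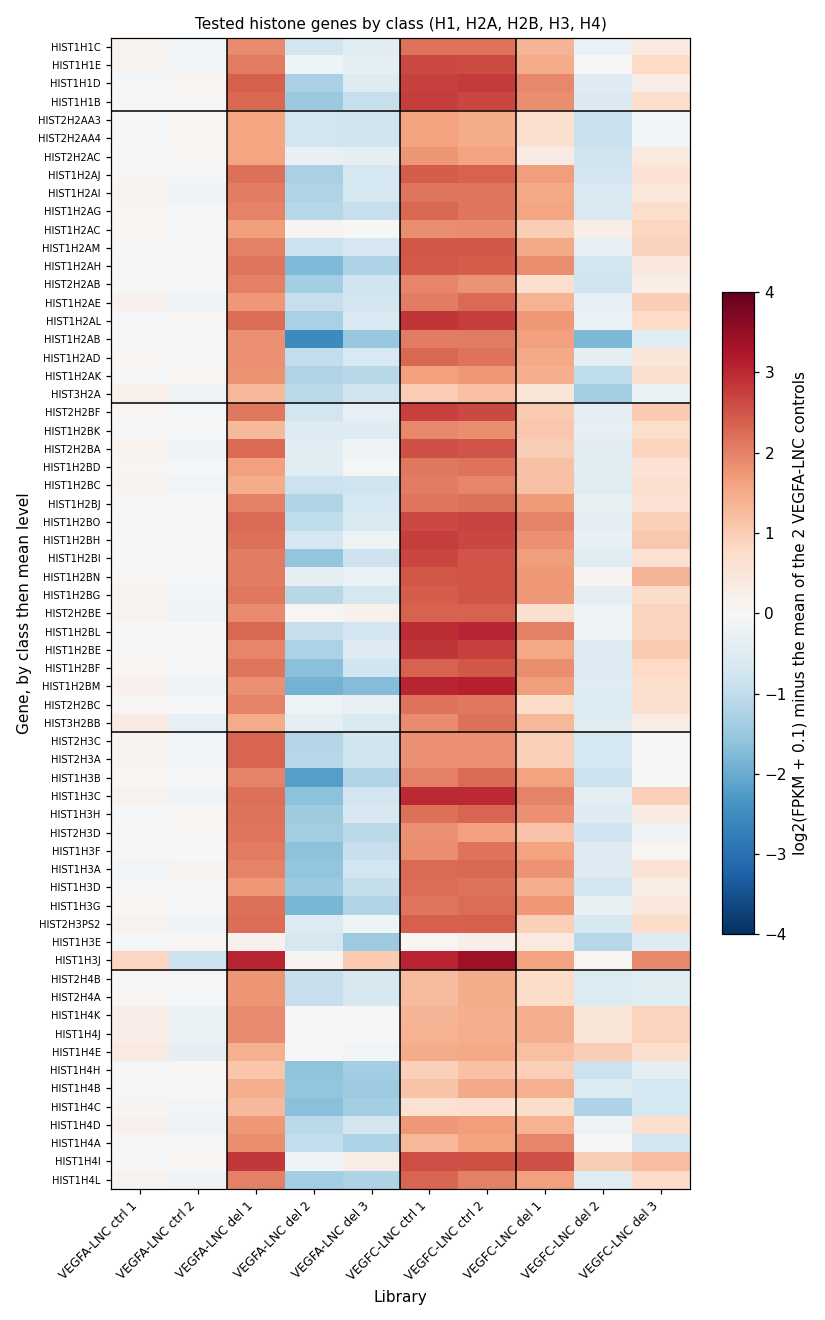
Level of the 63 tested histone genes (rows, by class and mean level) in the 10 libraries (columns), as log2(FPKM + 0.1) minus the mean of the 2 VEGFA-LNC controls. Red, higher, fills VEGFA-LNC clone 1, both VEGFC-LNC controls and, less strongly, VEGFC-LNC clone 1, and the row of HIST1H3E stays pale.

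Among the H1 genes, HIST1H1C, HIST1H1D and HIST1H1E encode abundant somatic linker histones. HIST1H1C was at 84.0 and 71.3 FPKM in the VEGFA-LNC controls, at 289, 46.8 and 58.4 in VEGFA-LNC clones 1 to 3, at 350 and 347 in the VEGFC-LNC controls and at 198, 65.1 and 98.9 in VEGFC-LNC clones 1 to 3. Its groups overlapped in VEGFA-LNC deletion and did not in VEGFC-LNC deletion. HIST1H1E was one of the 3 genes called between the control sets, with 42.2 and 36.4 FPKM in the VEGFA-LNC controls against 247 and 239 in the VEGFC-LNC controls (log2 2.63 ± 0.74 SE, adjusted p = 0.0489). Its VEGFC-LNC clones had 110, 39.8 and 67.9 FPKM and its VEGFA-LNC clones 165, 34.7 and 30.7. HIST1H1D had one of the 3 lowest values upon VEGFC-LNC deletion, from 229 and 237 FPKM to 131, 23.8 and 40.997 (−2.21 ± 1.01 SE, adjusted p = 0.277). The testis linker histone HIST1H1T and HIST1H1A stayed at 0.58 FPKM or below in every library and were not tested.

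Of the H2A genes, HIST2H2AA3 and HIST2H2AA4 were the highest and are identical copies. Every 75-base run of either is found in the other, and their reads could not be assigned to one of them. HIST2H2AA3 was at 321 and 351 FPKM in the VEGFA-LNC controls, at 996, 198 and 192 in the VEGFA-LNC clones, at 1024 and 951 in the VEGFC-LNC controls and at 529, 179 and 314 in the VEGFC-LNC clones. HIST2H2AC, which shares 20.7% of its runs with them, had 283 and 255 FPKM in the VEGFC-LNC controls and 106, 48.0 and 111 in the clones. HIST1H2AB had the lowest fitted value of the H2A genes upon either deletion, without passing the test. It went from 13.9 and 15.1 FPKM to 51.4, 2.40 and 4.96 in the VEGFA-LNC clones (−0.75 ± 1.25 SE, adjusted p = 0.789). In VEGFC-LNC deletion it went from 61.6 and 60.9 to 45.1, 4.10 and 10.3 (−2.29 ± 1.25 SE, adjusted p = 0.343). HIST1H2AA stayed at 0.21 FPKM or below and the pseudogene HIST1H2APS1 was listed at 0.

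Among the H2B genes, HIST2H2BF was highest, at 79.95 and 74.7 FPKM in the VEGFA-LNC controls and 510 and 479 in the VEGFC-LNC controls. Its VEGFA-LNC clones had 335, 46.4 and 62.1 FPKM and its VEGFC-LNC clones 159, 60.2 and 158. HIST1H2BM had the lowest fitted value of all members upon VEGFC-LNC deletion, from 90.1 and 92.7 FPKM to 34.1, 7.69 and 16.7 (−2.47 ± 1.03 SE, adjusted p = 0.252). Its VEGFA-LNC controls were at 12.2 and 9.40 FPKM, so that VEGFC-LNC clone 2 lay below them and clone 3 above. HIST2H2BA, a row labelled pseudo, reached 316 and 312 FPKM in the VEGFC-LNC controls and 107, 40.9 and 101 in their clones. Its long span was not scanned for shared 75-base runs, so reads shared with other members such as HIST2H2BF were not checked. HIST1H2BA, a testis form, and HIST1H2BB stayed at 1.16 FPKM or below.

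The H3 genes were led by HIST2H3A and HIST2H3C, which the table places at the same position and which cannot be separated. HIST2H3C had 246 and 216 FPKM in the VEGFA-LNC controls, 1146, 103 and 134 in the VEGFA-LNC clones, 826 and 818 in the VEGFC-LNC controls and 443, 141 and 231 in the VEGFC-LNC clones. HIST1H3B was at 72.4 and 63.6 FPKM in the VEGFA-LNC controls and at 272, 14.8 and 29.1 in their clones (−0.47 ± 1.10 SE, adjusted p = 0.851). HIST1H3E had the smallest difference between the control sets of all 63 genes. It was at 5.39 and 5.89 FPKM in the VEGFA-LNC controls, 6.30, 3.43 and 2.005 in their clones, 5.97 and 6.66 in the VEGFC-LNC controls and 7.49, 2.48 and 3.88 in theirs, from 12 to 77 reads a library. That difference was 0.16 ± 0.55 SE (adjusted p = 0.874). HIST1H3I and HIST3H3 stayed at 1.78 FPKM or below and were not tested. HIST1H3J, the highest fitted value upon VEGFA-LNC deletion (1.40 ± 0.89 SE, adjusted p = 0.431), rested on 2 to 62 reads a library. HIST1H2AD lies wholly within the span of the HIST1H3D row, on the same strand, so that its reads cannot be told from HIST1H3D reads there, while 17.9% of the runs of HIST1H3D are shared with it.

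Nearly all H4 genes encode the same core histone. HIST2H4A and HIST2H4B, identical copies, were the highest members of all, with 522 and 483 FPKM for HIST2H4B in the VEGFA-LNC controls, 1720, 264 and 323 in the VEGFA-LNC clones, 1218 and 1413 in the VEGFC-LNC controls and 835, 343 and 361 in the VEGFC-LNC clones. HIST1H4E had a narrower range, at 275 and 281 FPKM in the VEGFC-LNC controls and at 225, 196 and 154 in the clones (−0.55 ± 0.44 SE, adjusted p = 0.497). HIST1H4J and HIST1H4K, which share 90.4% and 91.1% of their runs, had the 2 fitted values nearest 0 upon VEGFC-LNC deletion. HIST1H4K went from 421 and 443 FPKM to 446, 228 and 302 (−0.46 ± 0.55 SE, adjusted p = 0.656), and its clone 1 lay above both controls. HIST1H4I was at 9.56 and 10.9 FPKM in the VEGFA-LNC controls and at 72.5, 9.31 and 12.5 in their clones (1.00 ± 0.79 SE, adjusted p = 0.538). HIST1H4H was at 92.3 and 103 FPKM and at 210, 32.1 and 36.8 (−0.63 ± 0.78 SE, adjusted p = 0.713). HIST1H4F and HIST1H4G were listed at 0 in every library.

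Side by side, the classes had these medians. Between the control sets the median log2 difference was 2.67 over the 4 tested H1 genes, 2.10 over 16 H2A, 2.49 over 18 H2B, 2.18 over 13 H3 and 1.41 over 12 H4 genes. Upon VEGFC-LNC deletion the medians were −1.95, −1.69, −1.83, −1.76 and −1.07 in the same order, and upon VEGFA-LNC deletion 0.23, 0.01, 0.18, −0.11 and 0.02. All 3 VEGFC-LNC clones were below both controls in 4 of 4 H1, 16 of 16 H2A, 18 of 18 H2B, 12 of 13 H3 and 5 of 12 H4 genes. The reads of H4 genes per read of H2B genes were 2.16 and 2.02 in the VEGFA-LNC controls and 1.83, 1.89 and 1.82 in their clones. They were 0.961 and 1.10 in the VEGFC-LNC controls and 1.71, 2.31 and 1.15 in theirs. The H4 to H2B ratio was thus lowest in the 2 VEGFC-LNC controls and in VEGFC-LNC clone 3, while VEGFA-LNC clone 1, with a total as high as those controls, kept the ratio of the other VEGFA-LNC libraries. The classes were not tested against each other. By position, the medians between the control sets were 2.16 over 27 genes of the first HIST1 block, 2.41 over 20 of the second, 1.84 over 14 HIST2 genes and 1.59 over 2 HIST3 genes.

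**Figure D3:**
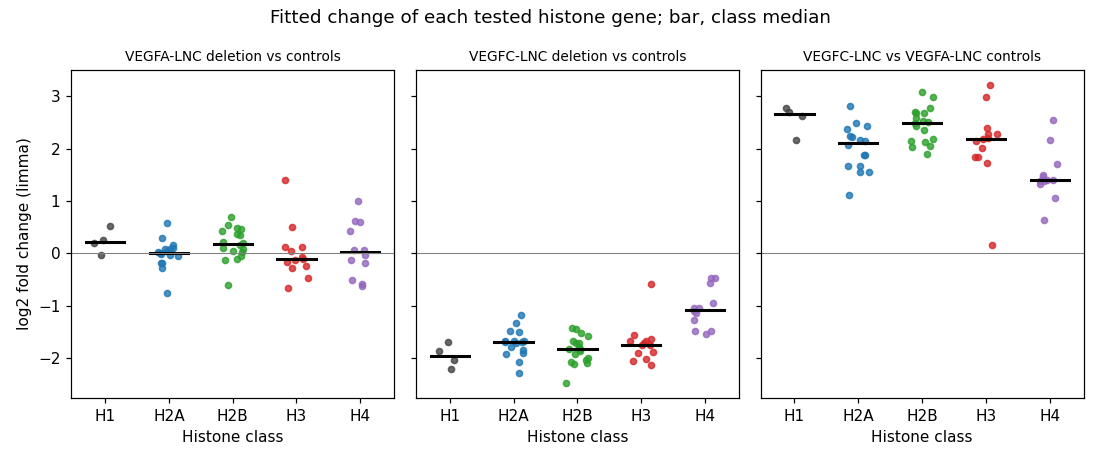
Fitted log2 fold change (y axis) of each tested histone gene, 1 point a gene, by class (x axis), in 3 comparisons, with a bar at the class median. H4 genes have the medians nearest 0 upon VEGFC-LNC deletion (−1.07) and between the control sets (1.41).

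Some replication-dependent genes are also known to give polyadenylated mRNAs. In 6 such genes (HIST1H1C, HIST1H2AC, HIST1H2BC, HIST1H2BD, HIST1H2BK and HIST2H2BE) the median differences were 0.32, −1.63 and 2.08 upon VEGFA-LNC deletion, upon VEGFC-LNC deletion and between the control sets, against 0.04, −1.70 and 2.18 over the other 57 tested members. HIST2H2BE was at 21.7 and 17.8 FPKM in the VEGFA-LNC controls, at 73.3, 20.1 and 21.9 in their clones, at 102 and 101 in the VEGFC-LNC controls and at 30.8, 17.0 and 36.1 in theirs. It was called between the control sets (2.36 ± 0.58 SE, adjusted p = 0.0330). HIST1H2AC was called too (1.88 ± 0.50 SE, adjusted p = 0.0403), from 47.1 and 42.0 FPKM to 163 and 166. Neither passed upon a deletion, where HIST1H2AC had 141, 48.0 and 43.6 FPKM in the VEGFA-LNC clones and 87.4, 53.3 and 81.4 in the VEGFC-LNC clones. HIST1H2BC, whose promoter HIST1H2AC shares, had 235 and 214 FPKM in the VEGFC-LNC controls and 124, 39.6 and 87.1 in the clones.

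HIST1H2BD and HIST1H2BK have a second, longer transcript model that goes on past the stem-loop, and the reads it adds followed another order than the gene totals. For HIST1H2BK the longer model added 20.4 and 18.6 CPM in the VEGFA-LNC controls and 9.14, 20.9 and 20.01 in the VEGFA-LNC clones. It added 5.16 and 4.22 in the VEGFC-LNC controls and 5.58, 4.003 and 6.67 in the VEGFC-LNC clones. For HIST1H2BD the numbers were 6.67 and 4.47, then 2.15, 8.78 and 8.86, then 0.527 and 1.03, then 1.20, 0.433 and 1.63. In both genes all 5 libraries of the VEGFA-LNC set were above all 5 of the VEGFC-LNC set, and VEGFA-LNC clone 1 was lowest of its set. How many other transcript models separate the sets in this way was not counted. The sets differed in many genes, with 12.7% of all genes called between the controls, and the cause of the separation was not tested. The shorter models had the opposite order in the controls, with HIST1H2BK at 92.9 and 93.9 FPKM in the VEGFA-LNC controls and 356 and 338 in the VEGFC-LNC controls. HIST1H2BD had 59.2 and 56.4 FPKM against 249 and 263. The longer model of HIST2H2BF added no reads in any library (the difference was 0 or below).

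**Figure D4:**
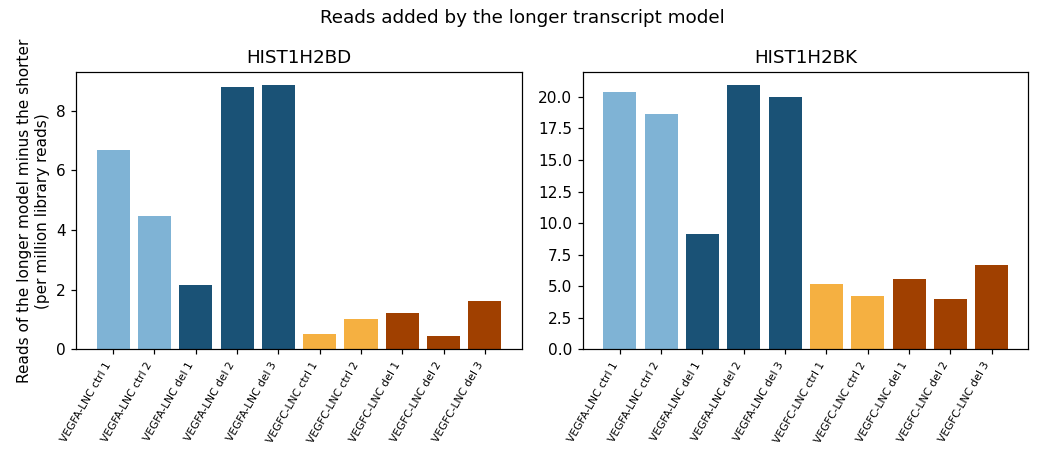
Reads added by the longer transcript model of HIST1H2BD and HIST1H2BK, in CPM (y axes from 0), in the 10 libraries (x axes), coloured by group. The 5 VEGFA-LNC libraries stand above the 5 VEGFC-LNC libraries in both panels.

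Genes that accompany DNA replication and mitosis had much of the same order over the libraries, with an exception in VEGFC-LNC clone 3. In a list of 25 S phase genes the median log2 difference from the VEGFA-LNC control mean was 1.16 in VEGFA-LNC clone 1, −1.32 and −0.73 in clones 2 and 3, 1.30 and 1.34 in the VEGFC-LNC controls, and 0.78, −0.68 and −0.20 in the VEGFC-LNC clones. RRM2, a subunit of ribonucleotide reductase named here outside the rule for named genes, was at 21.7 and 22.5 FPKM in the VEGFA-LNC controls, at 67.9, 3.35 and 6.58 in their clones, at 48.3 and 52.3 in the VEGFC-LNC controls and at 42.7, 7.40 and 12.3 in theirs. In 20 mitosis genes the same medians were 1.17, −2.19 and −1.41, then 1.45 and 1.45, then 0.65, −1.30 and −0.22. The histone medians on this scale were 1.99, −1.06 and −0.72 in the VEGFA-LNC clones, 2.15 and 2.18 in the VEGFC-LNC controls and 1.46, −0.49 and 0.59 in the VEGFC-LNC clones. In VEGFC-LNC clone 3 the histone median was thus above the VEGFA-LNC controls and the other medians were below them. All 25 S phase and all 20 mitosis genes had all 3 VEGFC-LNC clones below both controls, against 30.6% of all genes. Limma called 0 of either list upon VEGFA-LNC and VEGFC-LNC deletion, against 2.75% and 0.472% of all genes. At an unadjusted p under 0.05 there were 0 and 5 S phase genes and 0 and 1 mitosis genes. Of all genes, 19.8% and 18.8% had such a p upon these deletions. Between the control sets limma called 1 S phase gene, CDC45 (1.52 ± 0.42 SE, adjusted p = 0.0468), against 12.7% of all genes. The part of cycling cells in the histone differences was not tested.

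**Figure D5:**
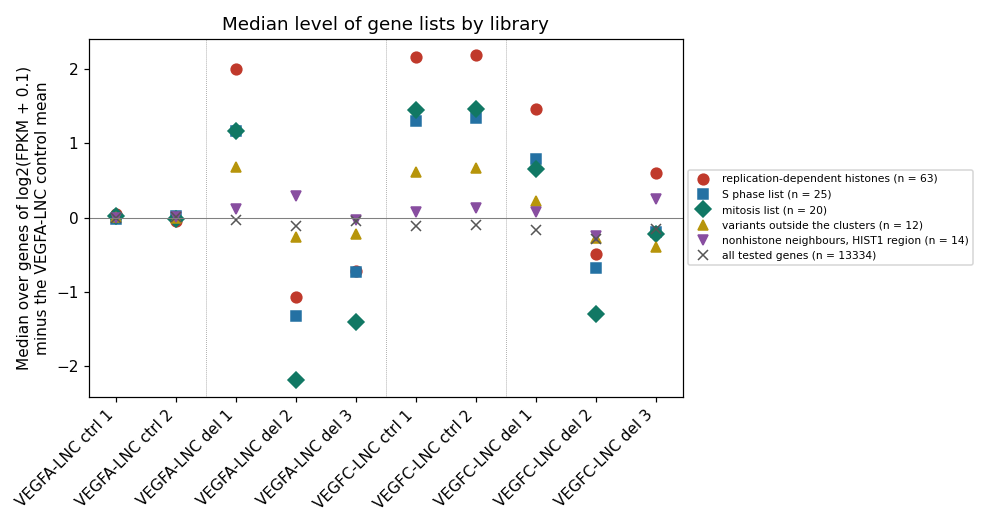
Median over the genes of each list of log2(FPKM + 0.1) minus the mean of the 2 VEGFA-LNC controls (y axis) in each library (x axis). The histone, S phase and mitosis lists are high in VEGFA-LNC clone 1 and the VEGFC-LNC controls and low in VEGFA-LNC clones 2 and 3, while all tested genes and the nonhistone neighbours stay within 0.30 of 0.

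Histone variants encoded outside the clusters, many of which are made throughout the cell cycle from mRNAs with poly(A) tails, gave smaller medians. Against their own controls, single genes still ran from −3.14 to −0.04 on the log2 scale in VEGFC-LNC clone 2. Over 12 tested of 13 listed, the medians were 0.07 upon VEGFA-LNC deletion, −0.73 upon VEGFC-LNC deletion and 0.64 between the control sets. Limma called 0 in these 3 comparisons, against 2.75%, 0.472% and 12.7% of all genes. At an unadjusted p under 0.05 there were 3, 5 and 3, against 19.8%, 18.8% and 31.3% of all genes. H2AFZ (H2A.Z) was at 86.8 and 88.7 FPKM in the VEGFA-LNC controls, at 246, 66.2 and 51.1 in their clones, at 146 and 183 in the VEGFC-LNC controls and at 190, 89.5 and 54.7 in theirs. H3F3A and H3F3B, both for H3.3, stayed between 95.5 and 164 FPKM and between 48.1 and 79.7 FPKM. The replacement linker histone H1F0 differed between the 2 deletion effects (−1.09 ± 0.20 SE, adjusted p = 0.0396), and so did H1FX (−1.68 ± 0.26 SE, adjusted p = 0.0231). These were 2 of the 12, against 1.45% of all genes called. H1F0 was at 56.2 and 52.4 FPKM in the VEGFA-LNC controls and 67.2, 81.7 and 67.3 in their clones, then at 80.03 and 81.6 in the VEGFC-LNC controls and 57.6, 46.2 and 47.1 in theirs. Its clones lay on opposite sides of their controls in the 2 deletions, and both VEGFC-LNC controls lay above both VEGFA-LNC controls. The control set and the deletion cannot be told apart in this comparison.

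Of 23 genes for transcription and processing of histone mRNA, limma called 1 upon VEGFA-LNC deletion, against 2.75% of all genes. Upon VEGFC-LNC deletion it called 0, against 0.472%, with 7 at an unadjusted p under 0.05, against 18.8%. Between the control sets 3 were called higher and 3 lower in the VEGFC-LNC controls. Of all genes, 12.7% were called there in either direction and 2.92% higher. The gene lower upon VEGFA-LNC deletion was UPF1, a helicase of mRNA decay that also serves histone mRNA decay (−0.82 ± 0.15 SE, adjusted p = 0.0307). NPAT was higher in the VEGFC-LNC controls, at 10.1 and 9.45 FPKM against 6.39 and 6.05 (0.65 ± 0.14 SE, adjusted p = 0.0205). CPSF3, the nuclease that cuts histone pre-mRNA (0.91 ± 0.18 SE), and CASP8AP2 (0.82 ± 0.23 SE) were higher as well. LSM10, a component of the U7 particle (−0.71 ± 0.17 SE), LSM1 (−0.71 ± 0.17 SE) and UPF1 (−0.66 ± 0.16 SE) were lower. SLBP itself had 20.6 and 20.8 FPKM in the VEGFA-LNC controls, 26.7, 17.1 and 16.5 in their clones, 24.5 and 24.6 in the VEGFC-LNC controls and 14.3, 17.7 and 18.03 in theirs, and passed in none of the 4 comparisons. Of 18 histone chaperone genes, limma called 0 upon either deletion, with 1 and 5 at an unadjusted p under 0.05, against 19.8% and 18.8% of all genes. NASP (0.95 ± 0.21 SE, adjusted p = 0.0230), SUPT16H (0.98 ± 0.24 SE, adjusted p = 0.0325) and HAT1 (0.79 ± 0.22 SE, adjusted p = 0.0479) were higher in the VEGFC-LNC controls, against 2.92% of all genes called higher.

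The 14 tested nonhistone genes that lie between the first and the last HIST1 gene had medians of 0.14, −0.10 and 0.13 upon VEGFA-LNC deletion, upon VEGFC-LNC deletion and between the control sets, beside −0.06, −0.09 and −0.11 over all genes. BTN3A2, a butyrophilin, rose upon VEGFA-LNC deletion from 4.99 and 5.001 FPKM to 9.38, 14.2 and 10.7 (1.16 ± 0.23 SE, adjusted p = 0.0382), and BTN2A3P fell by 1.40 on the log2 scale (SE 0.22, adjusted p = 0.0201). In VEGFC-LNC deletion limma called 0 of the 14, against 0.472% of all genes, with 2 at an unadjusted p under 0.05, against 18.8%. Between the control sets BTN3A2 was higher and BTN2A2 and TRIM38 were lower in the VEGFC-LNC controls. Of all genes, 2.75% were called upon VEGFA-LNC deletion and 12.7% between the control sets. RPPH1, the RNA of ribonuclease P, which also lacks a poly(A) tail and was chosen after its values were seen, had 19893 and 21650 FPKM in the VEGFA-LNC controls and 3058 and 2981 in the VEGFC-LNC controls. It had 17406, 35123 and 30823 in the VEGFA-LNC clones and 15812, 21020 and 15131 in the VEGFC-LNC clones. RMRP, another such RNA chosen in the same way, had 8420 and 8521 FPKM in the VEGFA-LNC controls, 16068, 16699 and 17077 in their clones, 5556 and 6606 in the VEGFC-LNC controls and 13929, 21583 and 21710 in theirs. Both were lower in the VEGFC-LNC than in the VEGFA-LNC controls. Among the VEGFA-LNC clones RMRP varied little and was above both controls in all 3. RPPH1 was lowest there in clone 1, the clone in which the histone genes were highest. The part of such RNAs in the histone differences was not tested. Endothelial markers moved with clone as well, with median differences from their own controls of −0.43, 1.37 and 0.65 in VEGFA-LNC clones 1 to 3 and −0.29, 0.49 and 0.66 in VEGFC-LNC clones 1 to 3, and their part in the result was not tested. Of the other marker lists, 3 of 6 epithelial, 1 of 5 leukocyte and 2 of 5 fibroblast genes were tested. The epithelial keratin KRT8 was at 285 and 282 FPKM in the VEGFA-LNC controls, at 348, 128 and 198 in their clones, at 324 and 316 in the VEGFC-LNC controls and at 175, 95.2 and 146 in theirs (−1.25 ± 0.39 SE upon VEGFC-LNC deletion, adjusted p = 0.163), and KRT18 had a like value there (−1.28 ± 0.45 SE, adjusted p = 0.202). KRT7 had the other sign (0.56 ± 0.39 SE, adjusted p = 0.439), and EPCAM and CDH1 stayed at 0.505 FPKM or below. The leukocyte gene LYZ differed by −2.49 ± 0.96 SE between the control sets (adjusted p = 0.118). The fibroblast gene COL1A1, at 0.332 FPKM or below throughout, was called lower upon VEGFA-LNC deletion (−1.50 ± 0.31 SE, adjusted p = 0.0422) and in the VEGFC-LNC controls (−1.34 ± 0.34 SE, adjusted p = 0.0370). The part of these markers in the histone differences was not tested.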

How the data were processed

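The deposited table held FPKM values per RefSeq transcript on hg19, made by the authors in the HOMER layout. The submitters' processing notes name Trim Galore 0.4.4, STAR 2.5.4b and featureCounts, and how the FPKM were computed is not given in the sources used here. The libraries were rRNA-depleted and stranded, so that RNAs without poly(A) tails were read. Reads were recovered from the FPKM steps, and 99.9% of the 1073 to 1570 values checked per library were whole within 0.1 reads. The row with the highest mean was kept per symbol. log2(FPKM + 0.1) was fitted with limma 3.58.1 (R 4.3.3) over all 4 groups without covariates, with Benjamini-Hochberg adjustment over the 13334 tested genes. Shares of reads were compared by exact permutation. Members and lists were chosen with earlier results of these data known. Members named with values were the 3 highest genes of each class by mean FPKM, those called, the 3 lowest and 3 highest fitted values upon each deletion and the 6 genes with known polyadenylated forms. Of the other lists the called genes and SLBP, NPAT, H2AFZ, H3F3A, H3F3B and H1F0 were named. Untested members, RRM2, the marker genes, RPPH1 and RMRP were named after their values were seen. Python 3.11.15, pandas 2.3.3, SciPy 1.17.1 and pysam 0.24.0 were used, and the fit was tested on simulated data. Alternatives were other pseudocounts, filters and scalings, limma voom on the recovered reads, all 4 controls, a replicate block and leaving out each library.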

Additional observations from a re-analysis of the deposited data

How the results depend on the processing

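The number of histone DEGs depended on few libraries. Leaving out 1 library at a time gave 0 upon VEGFA-LNC deletion, 0 to 27 upon VEGFC-LNC deletion, 0 to 55 between the control sets and 0 to 1 for the difference of the effects, and the 27, 55 and 1 were each without VEGFA-LNC clone 1. Between the control sets the count was 1 without VEGFC-LNC clone 1 or 3. With no filter on low values it was 1 upon VEGFA-LNC deletion, 1 upon VEGFC-LNC deletion and 1 for the difference, each a gene otherwise untested. Between the control sets that setting called HIST2H2BE and the otherwise untested HIST1H2BA and HIST3H3, but not HIST1H1E or HIST1H2AC. With 0.01 added to the FPKM in place of 0.1, HIST1H1E was not called there either. With a replicate block the count was 6 between the control sets. Same-numbered clones of the 2 deletions correlated at 0.55, 0.41 and 0.22 and differently numbered ones at −0.54 to 0.26, and VEGFC-LNC clone 3 correlated better with VEGFA-LNC clone 2 than with its own number. Clones and their own controls of the same number correlated at −0.043 to 0.047 and the controls at −0.0056, so the block stayed an alternative. It gave 0 histone DEGs upon either deletion and for the difference of the effects. The median upon VEGFC-LNC deletion was −0.62 against all 4 controls, and that between the control sets was 2.28 under median-of-ratios scaling. With both rows of each copied gene left out, the share of reads was 0.113% in the VEGFA-LNC and 0.493% in the VEGFC-LNC controls. The cause of these changes was not tested. Low genes such as HIST1H3J are limited by depth.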
